A study of Bos taurus with 10 samples.

Results

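The genes described here are 7 apolipoproteins (APOA1, APOA2, APOC3, APOH, APOB, APOE and APOD) and clusterin (CLU), read by 11 of the 24128 probe sets of the array, or 8 of its 9155 named genes. They were chosen from earlier results of these same 10 arrays, in which liver-made plasma protein genes had the largest spread and were highest in animals 3 and 7, and in which CLU rose with a score of fat cell genes. Every probe set with exactly 1 gene symbol in the platform annotation was kept when that symbol was one of the 8, and none of the 8 was missing. APOA1, APOA2, APOC3, APOH and APOB are treated as liver-restricted (6 probe sets), and APOE, APOD and CLU as made in many tissues (5 probe sets).

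The samples were longissimus dorsi, the long back muscle, of Hanwoo, the native beef cattle of Korea. The 10 samples form 1 group, numbered here as animals 1 to 10, with no treatment and no trait values, although the study correlated expression with beef traits of the animals. An age of about 2 years is given with animal 1, and the other labels give none. Poly(A) RNA of whole muscle was labelled with biotin and read on Affymetrix GeneChip Bovine Genome arrays, which measure each transcript with a probe set of short probes.

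Apolipoproteins are the proteins that coat lipid particles in blood, hold their structure and steer them to enzymes and receptors. The liver makes most of them, with the gut as another source of several, and muscle takes up the fatty acids that lipoprotein lipase releases from the particles. APOE, APOD and clusterin are also made outside the liver, by macrophages, fibroblasts, glia and fat cells among others, where they carry lipids or bind misfolded proteins. In whole muscle, fewer cells of a type and less RNA per cell cannot be told apart.

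Levels are given as log2(signal + 16) after quantile normalization, a scale on which differences of dim probe sets are understated. They can be compared between animals for 1 probe set, but not between probe sets. The 10 skeletal muscle genes measured, of 12 listed, had mean levels between 15.58 and 15.90 with a median SD of 0.10. These lie near the top of the scale, above 99.9% of probe sets, where little change can be seen, so they show the tissue but not whether it varied. Animal 5 stood apart in the difference between 3' and 5' signal of added poly(A) control RNAs, at 2.67 against 0.78 to 1.06 in the other animals, and on the first principal component, at 75.58 against -22.62 to 5.20. The fits of CLU are given with and without it.

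Among the liver-restricted genes, those for APOA2 and APOH were the most variable. APOA2, a protein of high-density lipoprotein (HDL), had levels of 9.45 in animal 3 and 9.12 in animal 7. The other animals lay between 4.38 in animal 4 and 6.39 in animal 1, so that no other animal came within 2 log2 units of these 2. The mean was 5.95 ± 1.89 (SD, n = 10) and the median 4.94. In deposited intensity, animals 3 and 7 read 680 and 540, against a median of 14.7 and a lowest value of 4.34 over the 10 animals. The PCBD1 probe set carries the same sequence cluster number as the APOA2 probe set, and its r with APOA2 was 0.309 over the 10 animals, so which transcript each reads is uncertain.

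APOH, also called beta-2-glycoprotein I, is a plasma protein that binds negatively charged phospholipids. Its level was 10.32 in animal 3 and 9.74 in animal 7. It was 7.19 in animal 10, 6.94 in animal 1 and 6.08 in animal 2, and the lowest value was 4.19 in animal 9. The mean was 6.36 ± 2.20 (SD, n = 10) with a median of 5.82. The deposited intensities of animals 3 and 7 were 1270 and 847, against a median of 36.1. The order below these 2 animals was similar to that of APOA2, with animals 1 and 10 next in both.

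APOC3, which inhibits lipoprotein lipase and slows the clearance of triglyceride-rich particles, separated animals 3 and 7 from the rest with a flat background. Both stood at 7.37, and the other 8 animals lay between 4.27 and 4.76. The mean was 5.10 ± 1.20 (SD, n = 10) and the median 4.60. Without animals 3 and 7 its SD was 0.18, that of APOA2 0.79 and that of APOH 1.18. The SDs of APOA2 and APOH were above those of 99.9% of all probe sets outside the controls, and that of APOC3 was above 99.4%.

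APOA1, the main protein of HDL and the activator of the cholesterol-esterifying enzyme LCAT, had the same 2 animals on top but no gap below them. Its level was 8.81 in animal 3 and 8.26 in animal 7, followed by 7.92 in animal 8 and 7.87 in animal 6. The lowest value was 6.14 in animal 10, the mean 7.42 ± 0.81 (SD, n = 10) and the median 7.29. Animals 1 and 10, which came next after animals 3 and 7 in APOA2 and APOH, were the lowest 2 for APOA1.

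APOB, the structural protein of very-low-density and low-density lipoprotein, was read by 2 probe sets that disagreed. Probe set Bt.23652.1.A1_at was 8.0 in animal 3 and 7.02 in animal 7, with animal 6 at 6.75 and animal 1 at 6.66, a lowest value of 5.38 in animal 9 and a median of 6.19. Probe set Bt.16103.1.S1_at was 4.98 in animal 3 and 4.35 in animal 7, its lowest value, with a highest value of 5.83 in animal 10 and a median of 5.21. The r between the 2 was -0.606 over the 10 animals. The second probe set was dim, with a highest deposited intensity of 48.1, and its SD of 0.50 lay above that of 48.7% of all probe sets. Whether either reads the transcript of whole APOB was not tested.

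**Figure D1:**
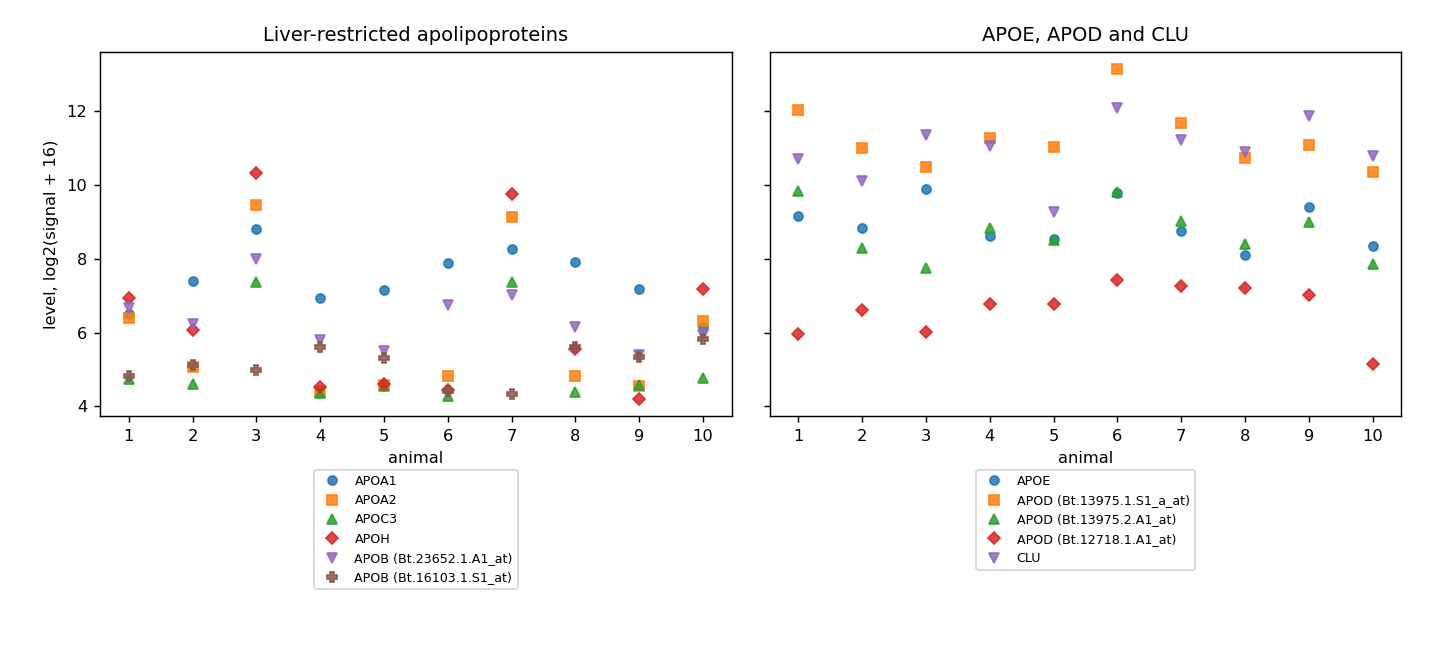
Level, as log2(signal + 16), of each of the 11 probe sets (vertical axis) in each of the 10 animals (horizontal axis), with liver-restricted genes on the left and APOE, APOD and CLU on the right. Points are single animals. Animals 3 and 7 hold the top 2 values of APOA2, APOC3, APOH, APOA1 and 1 APOB probe set, while no probe set on the right has its top 2 values in that pair.

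Animals 3 and 7 held the top 2 values in 5 of the 6 liver-restricted probe sets and in 0 of the 5 of APOE, APOD and CLU. The same was true of 586 of the 24016 probe sets outside the controls, or 2.44%. Because this pattern chose the liver-restricted genes, the count is a description and carries no test. The median deviation of the 6 probe sets from their own 10-animal medians was 2.29 in animal 3 and 1.87 in animal 7, while the other 8 animals gave -0.37 to 0.39. Over all probe sets the same median lay between -0.01 and 0.01 in every animal. The 3' to 5' difference of the poly(A) controls was 0.78 in animal 3, the lowest of the 10. It was 1.06 in animal 7, as in animal 1, and only animal 5 was higher. Whether the levels of animals 3 and 7 have a technical source was not tested.

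The genes of other plasma proteins that the liver makes had the same 2 animals on top in 24 of the 35 measured (of 36 listed), among them C9, F2, HP, FGG and TF. The share over all probe sets was 2.44%. This pattern was among the earlier results that chose the members, so the count restates it and is no separate support. FGG, the gamma chain of fibrinogen, was 12.28 in animal 3 and 12.49 in animal 7, with the others between 4.16 and 9.71. That count uses the brightest probe set of each gene, and ALB, serum albumin, and AHSG, the carrier fetuin-A, show how it depends on that choice. The brightest ALB probe set was 10.75 in animal 3 and 10.73 in animal 7 within a range of 10.24 to 11.81. Among all 9 ALB probe sets 2 had animals 3 and 7 on top, and 1 of these was 12.78 in animal 3 and 13.02 in animal 7, with 10.66 in animal 10 and the others between 6.06 and 7.89. Its r with APOH was 0.954. The brightest AHSG probe set had a mean of 10.08 ± 0.25 (SD, n = 10), and 3 of the 8 AHSG probe sets had animals 3 and 7 on top. Which of these probe sets read ALB or AHSG was not tested. The same liver list was lowest in animal 5, with a median deviation of -0.83, and was 0.51 in animal 10.

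Genes for enzymes and surface proteins of hepatocytes, the main cells of the liver, were all dim, and 0 of the 17 measured (of 25 listed) passed the level filter used for tests. In 6 of the 17 the top 2 values were in animals 3 and 7, against a share of 2.44% over all probe sets. This list too was chosen with earlier results of these data known, so the count carries no test. DPYS, an enzyme of pyrimidine breakdown, was 8.75 in animal 3 and 8.06 in animal 7, with the others between 4.13 and 6.55. CPS1, the first enzyme of the urea cycle, was 8.71 in animal 3 and 8.26 in animal 7, with the others between 6.15 and 7.05. TDO2, BHMT, F9 and HPD were the other 4. In contrast ARG1, at 6.19 and 6.30, CYP2E1, at 4.75 and 4.73, and the liver transcription factor HNF4A, at 6.22 and 6.43, were not at the top in animals 3 and 7. The median deviation of the 17 was 0.70 in animal 3 and -0.09 in animal 7.

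Genes of enterocytes, the absorbing cells of the gut that also make APOA1 and APOB, had the 2 animals on top in 0 of the 5 measured (of 10 listed). Their median deviation was -0.09 in animal 3 and 0.04 in animal 7. These genes were dim too, with means of 4.87 to 5.54, and 0 passed the level filter. A count of 0 of 5 is near the share of 2.44% over all probe sets, so it says little about enterocytes. The part that liver RNA, or any other source, has in the levels of animals 3 and 7 was not tested.

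**Figure D2:**
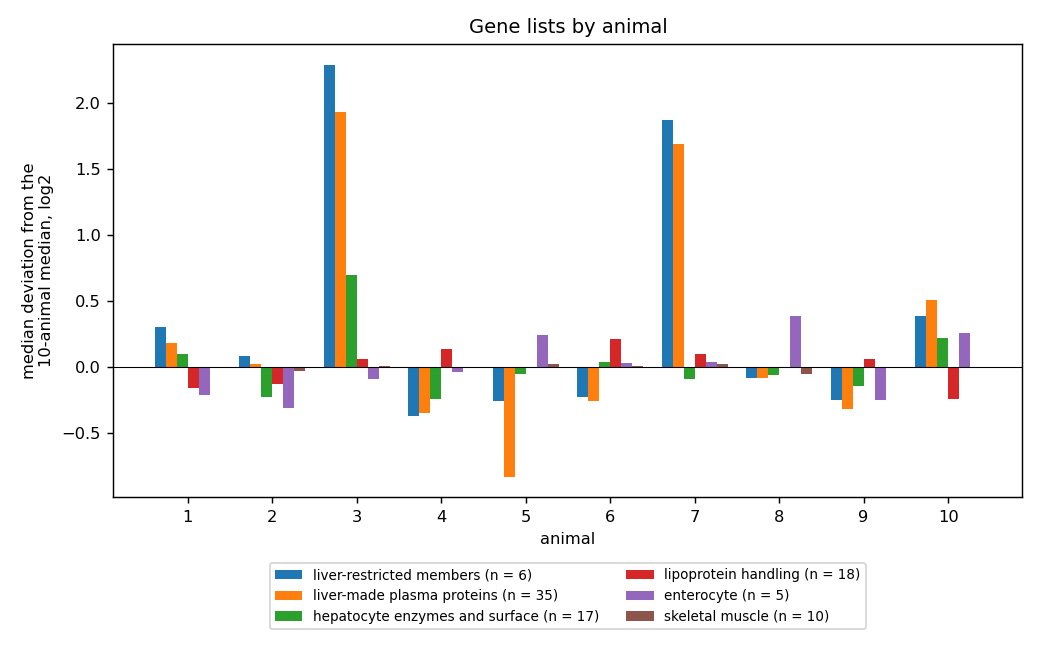
Median, over the genes or probe sets of a list, of the deviation from each one's 10-animal median, in log2 units (vertical axis), for 6 lists in each of the 10 animals (horizontal axis); bars start at 0 and n is the number of genes, or of probe sets for the liver-restricted apolipoproteins. The liver-restricted bars reach 2.29 in animal 3 and 1.87 in animal 7 and those of liver-made plasma proteins 1.93 and 1.69. The skeletal muscle bars lie near 0, from probe sets near the top of the scale that can show little change.

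APOE, the ligand by which lipoprotein remnants bind receptors of the LDL receptor family, had levels from 8.11 in animal 8 to 9.88 in animal 3, with a median of 8.79. Animal 6 was next to the highest, at 9.77, and animal 7 was at 8.75, close to the median. The mean was 8.94 ± 0.59 (SD, n = 10), a spread above that of 61.8% of probe sets. The animals formed no separate groups.

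APOD, a lipocalin that carries small hydrophobic molecules such as arachidonic acid, was read by 3 probe sets. Probe set Bt.13975.1.S1_a_at ranged from 10.33 in animal 10 to 13.14 in animal 6, with animal 1 at 12.03, a median of 11.05 and a mean of 11.27 ± 0.83 (SD, n = 10). Probe set Bt.13975.2.A1_at ranged from 7.75 in animal 3 to 9.84 in animal 1, with animal 6 at 9.80 and a median of 8.67. Both had animals 1 and 6 on top and animals 3 and 10 at the bottom, and the r between them was 0.908 (0.903 without animals 3 and 7). Probe set Bt.12718.1.A1_at, of another cluster number, ranged from 5.16 in animal 10 to 7.42 in animal 6 with a median of 6.78, and had animal 1 among its lowest values at 5.95. Its r was 0.496 with the first and 0.448 with the second.

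CLU encodes clusterin, or apolipoprotein J, a secreted chaperone also found on HDL. Its level was 9.26 in animal 5 and 10.11 in animal 2, the lowest, and 11.85 in animal 9 and 12.06 in animal 6, the highest. The median was 10.97 and the mean 10.93 ± 0.81 (SD, n = 10). In deposited intensity this was a range of 606 to 4240, or 7.0-fold. Animals 3 and 7, at 11.35 and 11.22, came next after animals 6 and 9. The r of CLU with the 3' to 5' difference of the poly(A) controls was -0.705, and 0.057 without animal 5.

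No single animal stood apart from the other 9 by Dixon's test in any of the 11 probe sets. The highest ratio of gap to range was 0.396, for animal 6 in APOD, which is under the critical value for 10 samples. The test sets 1 animal against its nearest neighbour and so does not see 2 animals that are both high.

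The correlations among the liver-restricted probe sets rested in large part on animals 3 and 7. Over the 10 animals, which share arrays and normalization, the 15 pairs of liver-restricted probe sets had a median r of 0.652 (-0.606 to 0.98). The 30 pairs of a liver-restricted with another probe set had a median of -0.098 (-0.738 to 0.554), and the 10 pairs among APOE, APOD and CLU 0.417 (0.071 to 0.908). Without animals 3 and 7 the medians were 0.172, -0.214 and 0.483 in that order, so that the pairs among APOE, APOD and CLU then had the highest. These are descriptions of 10 animals and carry no test, and 5 of the 15 liver-restricted pairs were below 0, all with APOB probe set Bt.16103.1.S1_at.

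APOA2 and APOH were the most alike pair, with an r of 0.98 and still 0.923 without animals 3 and 7. For APOA2 and APOC3 the r was 0.956, and 0.739 without the 2 animals. APOA1 was different. Its r with APOA2 was 0.511 over all animals and -0.688 without animals 3 and 7, and with APOC3 it was 0.652 and -0.791. The likeness of APOA1 to APOA2 and APOC3 thus rests on these 2 animals. Without them the APOC3 values come from dim readings, of 4.16 to 13.4 in deposited intensity. Most APOA2 readings were then dim too, at 4.34 to 14.8 apart from 77.9 in animal 1 and 74.6 in animal 10. APOH was 118 in animal 1, 140 in animal 10 and 1.84 to 43.5 in the others. The r values of APOA2 without animals 3 and 7 thus rest on mostly dim readings and on animals 1 and 10. Among the genes made in many tissues, APOE and CLU had an r of 0.577, and APOE and APOD (probe set Bt.13975.1.S1_a_at) one of 0.441 that was 0.098 without animal 6.

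**Figure D3:**
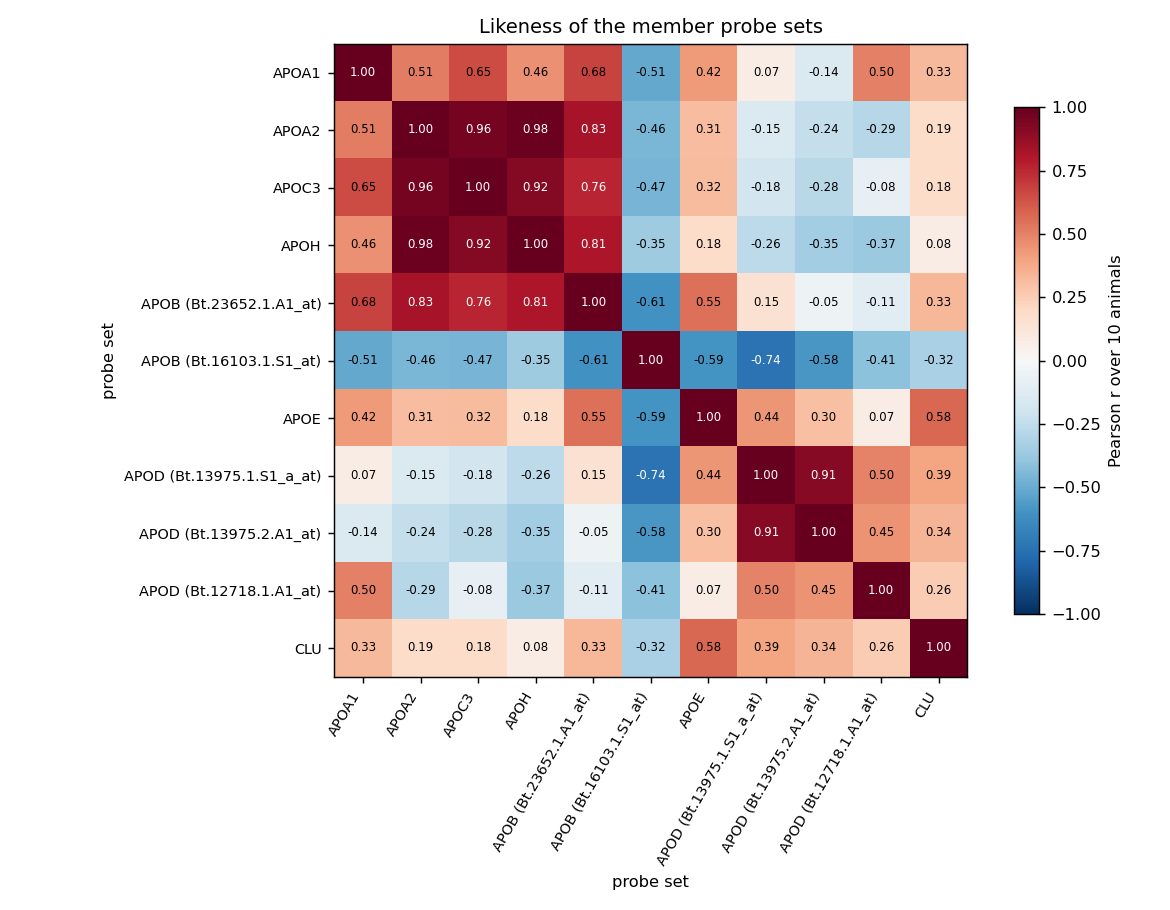
Pearson r over 10 animals between the levels of each pair of the 11 probe sets, with probe sets on both axes and colour running from -1 (blue) to 1 (red). APOA2, APOC3 and APOH form a block with r between 0.915 and 0.98, APOB probe set Bt.16103.1.S1_at is negative against the other 10, and the 2 APOD probe sets of 1 cluster number have an r of 0.908.

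APOC3 and APOA1 are neighbours of APOA4 and APOA5 in the ARS-UCD2.0 annotation, and APOE of APOC4 and APOC2. APOA5, which raises lipoprotein lipase activity, was 6.82 in animal 3 and 7.30 in animal 7, with the others between 4.50 and 5.31. Its r with APOC3 was 0.951, and 0.282 without these 2 animals. APOA4 was 8.33 in animal 3 and 7.61 in animal 7, just above the 7.60 of animal 1, and its r with APOC3 was 0.575, and -0.345 without animals 3 and 7. APOC2, the activator of lipoprotein lipase, was 8.50 in animal 3 and 7.95 in animal 7, with animal 1 next at 7.22. Its r was 0.79 with APOC3, a gene of another cluster, and 0.24 with its neighbour APOE, and without animals 3 and 7 these were 0.707 and -0.091. APOC4 had an r of 0.077 with APOE, and -0.726 without these 2 animals. The r values of APOC3, APOA5 and APOC4 without animals 3 and 7 rest on dim readings, with APOC4 then between 4.49 and 5.63.

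In all, 3 of the 8 other apolipoprotein genes measured (of 12 listed) had animals 3 and 7 on top, namely APOA4, APOA5 and APOC2. The share over all probe sets was 2.44%. The list was chosen with earlier results of these data known, so the count carries no test. APOM, of HDL, was highest in animal 9 at 7.91 and lowest in animal 10 at 4.55. APOO and APOOL, which are subunits of a complex of the mitochondrial inner membrane, varied little, with SDs of 0.32 and 0.31. APOLD1, a gene of endothelial cells, had a mean of 9.24 ± 0.53 (SD, n = 10).

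The genes outside the 8 whose levels were most like each one were ranked by r over the 10 animals among 6267 tested named genes. For APOA2 they were C9, the last component of the complement pore (0.972), F2, prothrombin (0.958), and HP, haptoglobin (0.939). For APOH they were FGG (0.968), C9 (0.966) and F2 (0.955). For APOC3 they were C9 (0.957), FGL1, a secreted hepatocyte protein (0.928), and the complement regulator C4BPA (0.928). Without animals 3 and 7 the APOC3 values were 0.614, -0.179 and 0.032, while that of APOH with FGG was 0.923. The APOC3 values then rest on dim readings, and that of APOH does so in part, with deposited intensities down to 1.84. The level filter took the mean over all 10 animals, so plasma protein genes could pass it through animals 3 and 7. Likeness to such genes is therefore no separate support for the pattern.

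None of the genes ranked most like APOA1 and APOB was on the list of liver-made plasma proteins. APOA1 was closest to ETNPPL, an enzyme of phosphoethanolamine breakdown (0.942), GATM, which makes the precursor of creatine (0.941), and MTRF1L, a mitochondrial translation release factor (0.931). These values were 0.95, 0.941 and 0.941 without animals 3 and 7. The GATM probe set shares its sequence cluster number, 23250, with 6 AHSG probe sets, so which gene it reads is uncertain. The brighter APOB probe set was closest to the aminopeptidase LAP3 (0.896), the interferon receptor subunit IFNAR2 (0.89) and DECR1, an enzyme of fatty acid oxidation (0.886). The APOB probe set had an r of 0.755 with the mean score of 14 liver-made plasma protein genes (0.198 without animals 3 and 7). For that score the r of APOA2 was 0.951, of APOC3 0.918, of APOH 0.964 and of APOA1 0.497. Without animals 3 and 7 these were 0.736, 0.594, 0.834 and, for APOA1, -0.514. Of the 14 genes, 11 had animals 3 and 7 on top, and the level filter that admitted them took means that include these animals. The score thus carries the pattern that chose the members, and these r values are a description only.

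APOE was closest to the chloride channel family gene CLIC2 (0.876), the complement gene C4A (0.869) and SELENOF, a selenoprotein of the endoplasmic reticulum (0.863). APOD was closest to ARHGAP31 (0.872), RAC2 (0.866) and KIF3B (0.865), the last of which encodes a motor protein subunit. CLU was closest to GLIPR2 (0.986), the unnamed locus LOC504773 (0.973) and the translation elongation factor EEF1A1 (0.972). Another probe set of EEF1A1 had an r of 0.624 with CLU, so the last value depends on the probe set.

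APOE, APOD and CLU were then set against scores of fat cells, macrophages and connective tissue. These are among the cell types known to make them. A score is the mean deviation of a list's tested genes, and a slope is the change in log2 level per SD of the score. The limma fits covered the 12008 probe sets whose mean was above the median level of 6.98. Of the 11 probe sets 5 passed this filter, namely APOA1, APOE, APOD Bt.13975.1.S1_a_at, APOD Bt.13975.2.A1_at and CLU, and the other 6 were not tested.

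CLU rose with the macrophage score. Its level was 9.26 in animal 5, where the score was lowest at -0.96, and 12.06 in animal 6, where it was highest at 0.99. The macrophage score itself ran with the adipocyte score, with an r of 0.801 over the 10 animals (0.699 without animal 5), and CLU was chosen for its slope on a fat cell score of these arrays. The test that follows is therefore no independent evidence for CLU. The slope was 0.78 ± 0.10 (SE, n = 10; limma adjusted p = 0.0296). It was the only one of the 5 tested probe sets to be called, and the only one called among all 12002 tested probe sets outside the macrophage list, or 0.00833%. Of those 12002, 1548 had an unadjusted p below 0.05.

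The call was close to the threshold of 0.05. It was lost, with adjusted p between 0.0753 and 0.241, when any single animal other than 1 or 3 was left out, although the slope stayed between 0.56 and 0.83 in all 10 such fits. With that 3' to 5' difference of the controls added to the model, the slope was 0.67 and the limma adjusted p 0.212, and without animal 5 the slope was 0.56 and the limma adjusted p 0.241. CLU also ran with the smooth muscle score (r = 0.823, and 0.638 without animal 5) and the endothelium score (r = 0.63, and 0.575 without animal 5), against 0.957 with the macrophage score (0.942 without animal 5).

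Among the 6 macrophage genes of the score, CLU had an r of 0.949 with C1QB and 0.901 with C1QA, both subunits of complement C1q, and 0.787 with the lysosomal protein gene CD68. It was 0.696 with AIF1, 0.663 with CD14 and 0.655 with CSF1R, the receptor of a macrophage growth factor. Without animal 5 the last was 0.392 and that of C1QB 0.923. Of the 6, fitted against the score without themselves, 0 passed the same limma test and 5 had an unadjusted p below 0.05, with slopes from 0.31 to 0.70.

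**Figure D4:**
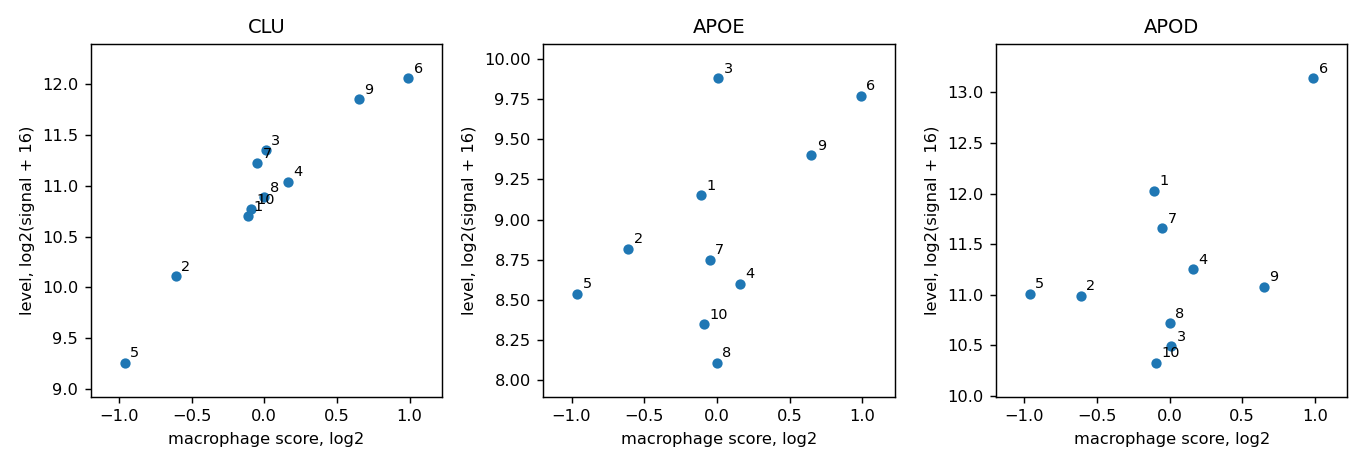
Level of CLU, APOE and APOD (probe set Bt.13975.1.S1_a_at), as log2(signal + 16) (vertical axes), against the macrophage score, the mean log2 deviation of 6 macrophage genes (horizontal axes), with each point an animal marked by its number. CLU follows the score from animal 5 to animal 6, while APOE is as high in animal 3, at 9.88, as in animal 6, and APOD is highest in animal 6 at 13.14.

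The slope of CLU on the adipocyte score was 0.71 ± 0.13 (SE, n = 10; limma adjusted p = 0.0989), and a slope of this gene on a fat cell score was among the values that chose it, so it supports nothing here. Without animal 5 it was 0.49 (limma adjusted p = 0.571). In the fit over all 10 animals 2 of 11996 probe sets outside the list were called, or 0.0167%, and 1304 had an unadjusted p below 0.05. The 2 were the macrophage gene C1QA and S100A11, a calcium-binding protein. Neither was called without animal 5, when the count was 0. The 3 scores ran together and are not separate measures of 3 cell types, with an r of 0.806 between macrophage and connective tissue and 0.654 between adipocyte and connective tissue. On the connective tissue score the slope of CLU was 0.66 ± 0.15 (SE, n = 10; limma adjusted p = 0.182), and 0.49 without animal 5 (0.165). Over all 10 animals 3 of 11989 probe sets outside the list were called, or 0.025%, with 976 at an unadjusted p below 0.05. These 3 were MGP, TGFBI and 1 unnamed probe set. Over the 16 tested connective tissue genes the r with CLU had a median of 0.631 and ran from 0.077 for PDGFRA to 0.927 for the matrix protein gene SPARC. Over the 10 tested adipocyte genes the median was 0.584, from -0.174 for GPAM to 0.852 for the fatty acid carrier gene FABP4, and over the 6 macrophage genes 0.742. Without animal 5 the medians were 0.728, 0.302 and 0.755 in that order.

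APOE, APOD and APOA1 did not pass the test on any of the 3 scores. APOE, a known product of macrophages, had a slope of 0.32 ± 0.16 on the macrophage score (SE, n = 10; limma adjusted p = 0.414), 0.27 on the adipocyte score and 0.27 on the connective tissue score. The APOD probe sets Bt.13975.1.S1_a_at and Bt.13975.2.A1_at had slopes of 0.43 ± 0.21 and 0.34 ± 0.19 on the macrophage score (limma adjusted p = 0.412 and 0.465). The slope of the first was 0.02 without animal 6, in which APOD was highest. On the connective tissue score the 2 slopes were 0.25 and 0.09, and -0.19 and -0.18 without animal 6. APOA1 had its largest slope on the connective tissue score, at 0.46 ± 0.20 (SE, n = 10; limma adjusted p = 0.564). All 15 slopes of the 5 probe sets were above 0. Over all probe sets outside the lists, 50.1% of slopes were above 0 in the adipocyte fit, 49.4% in the macrophage fit and 50.3% in the connective tissue fit. The 15 slopes are not separate results, because the 3 scores ran together and 2 of the probe sets are of APOD. CLU was also chosen for such a slope. With no level filter, the untested member probe sets had slopes of both signs. These ran from -0.48 for APOH on the macrophage score to 0.40 for APOD Bt.12718.1.A1_at on the connective tissue score. A p above the threshold does not show that APOE, APOD and APOA1 do not vary with the scores.

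**Figure D5:**
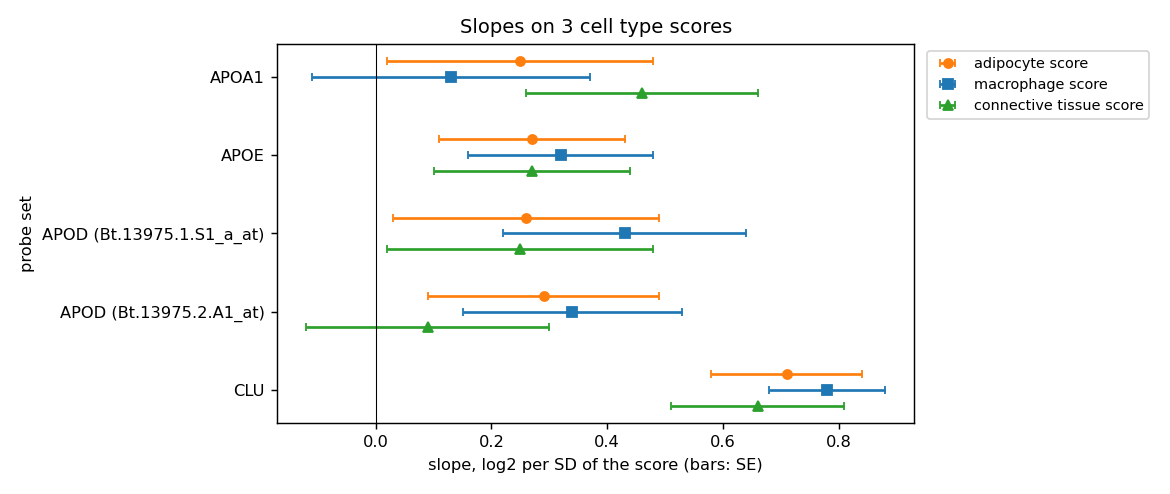
Slope, in log2 units per SD of the score (horizontal axis, bars are SE), of the 5 tested probe sets (vertical axis) on the adipocyte, macrophage and connective tissue scores, n = 10 animals. The CLU slopes are 0.71, 0.78 and 0.66, and the other 12 lie between 0.09 and 0.46.

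Genes that handle lipoproteins in tissue, such as receptors, lipases and cholesterol carriers, did not pass the test on any score. Of 30 listed, 18 were measured and 12 tested, and in each of the 3 limma fits 0 rose and 0 fell. At an unadjusted p below 0.05 there were 2 on the adipocyte score, 2 on the macrophage score and 1 on the connective tissue score. Their median slopes were 0.11, 0.10 and 0.13 in that order, against 0 over all probe sets outside the lists in each fit. LIPA, lysosomal acid lipase, was highest in animal 6 at 9.71, where CLU and 2 of the 3 APOD probe sets were also highest, with the others between 7.0 and 8.06. Its slope on the connective tissue score was 0.53 ± 0.16 (SE, n = 10; unadjusted p = 0.00466, limma adjusted p = 0.291). LCAT, the enzyme that APOA1 activates, was lowest in animal 5 at 6.10 and otherwise between 7.13 and 8.82. LPL, lipoprotein lipase, was highest in animal 5 at 13.47, then in animal 4 at 12.83, and lowest, at 10.90, in animals 1 and 8. Its inhibitor ANGPTL4 was highest in animal 7 at 10.99 and lowest in animal 5 at 7.94, then in animal 9 at 8.89. Animal 5 is the one that stood apart on the poly(A) controls and the first principal component. Whether its extremes in LCAT, LPL and ANGPTL4 are technical was not tested.

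Animals 3 and 7 were on top in 0 of the 18 lipoprotein handling genes, near the share of 2.44% over all probe sets. The median deviation of these genes was 0.06 in animal 3 and 0.10 in animal 7. VLDLR, the receptor by which muscle binds triglyceride-rich particles, had a mean of 12.25 ± 0.26 (SD, n = 10). SCARB1, the HDL receptor, had a mean of 8.20 ± 0.27, and MTTP, which loads lipid onto APOB, one of 6.07 ± 0.72 with 6.37 in animal 3 and 5.21 in animal 7. Of the 4 other apolipoprotein genes that were tested, 0 were called in any of the 3 limma fits, and at an unadjusted p below 0.05 there were 2 on the adipocyte score and 1 on each of the other 2. APOO had the largest slope on the macrophage score among these 4, at 0.26 ± 0.09 (SE, n = 10; limma adjusted p = 0.283).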

How the data were processed

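The authors deposited linear intensities, with each probe set summarised to 1 value on each array by software not given in the sources used here. Per the labels' protocols, poly(A) RNA was purified from Trizol extracts. The mean without the lowest and highest 2% of deposited intensities was 500.177 to 500.203 on every array, a common scaling, and array medians were 111 to 134.

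The members and the gene lists were chosen with earlier results of these data known. From the deposited intensities, log2(signal + 16) was taken and quantile normalized without the 112 control probe sets. Of the other 24016 probe sets, 13292 had 1 symbol in the platform annotation, 86 several and 10638 none listed. The ARS-UCD2.0 gene table served for symbols and gene order only. Scores were fitted with limma 3.58.1 in R 4.3.3 (lmFit, eBayes) on the 12008 probe sets above the median mean level, with Benjamini-Hochberg adjustment over all of them at 0.05. A score uses the brightest probe set of each tested list gene, and a list gene was fitted against the score without itself. The fits were tried on simulated data with independent noise in each probe set, unlike real arrays. That trial is no check on the results given here. That the samples are separate cattle rests on their numbers and on the design text, and p-values measure the spread between these samples, which may be technical. Their number limits the precision.

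Named genes were the 8 members, the 3 most similar tested genes for each, measured genes of the lists of plasma proteins, apolipoproteins, lipoprotein handling and hepatocytes, and from other lists the brightest and most variable gene. S100A11, MGP, TGFBI and the macrophage, fat and matrix genes set against CLU were named after their values were seen. Alternatives were other scalings, pseudocounts of 1 and 64, other level filters, a poly(A) control covariate, 1 probe set per gene and fewer animals.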

Additional observations from a re-analysis of the deposited data

How the results depend on the processing

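The counts of probe sets called outside the lists were 2 for adipocyte, 1 for macrophage and 3 for connective tissue, and were small enough to move under most alternatives. For macrophage the count was 6 with the deposited scaling and 2 with median centring. With no level filter the counts were 1, 0 and 0 in the same order, where limma also tested the dim probe sets. With the filter at the 75th percentile the adipocyte count was 0, and the macrophage score had too few tested genes and was not run. With the poly(A) control difference in the model the counts were 0, 0 and 18. With the brightest probe set of each named gene the macrophage count was 20 and the connective tissue count 7. Without animals 3 and 7 the counts were 1, 2 and 0. Leaving out each animal in turn gave 0 to 4 for adipocyte, 0 to 5 for macrophage and 0 to 17 for connective tissue, the last without animal 5. The cause was not tested.

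The call of CLU on the macrophage score held under 6 of the 8 alternatives run other than leaving out single animals, with slopes of 0.67 to 0.87 and limma adjusted p from 0.0112 to 0.212. It was lost with no level filter (adjusted p = 0.144) and with the control difference in the model (0.212). It held in 2 of the 10 fits without 1 animal, with adjusted p from 0.0308 to 0.241. The slopes of APOD on the connective tissue score changed sign without animal 6, to -0.19 for Bt.13975.1.S1_a_at and -0.18 for Bt.13975.2.A1_at, and over all 10 such fits ranged from -0.19 to 0.51 and from -0.18 to 0.40. Neither was called in any fit.

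Over the other alternatives the SD ranged from 0.79 to 2.49 for APOA2, 0.18 to 1.86 for APOC3 and 1.18 to 2.95 for APOH, the lowest being without animals 3 and 7 in each. The r of APOA1 with APOA2 ranged from -0.69, without animals 3 and 7, to 0.625. Of the slopes, 261 kept their direction and side of the threshold, 10 were no longer called and 2 changed sign. No paired analysis was possible because the samples form 1 group. Dim probe sets, such as those of APOC3 and APOB, have levels set in part by the pseudocount.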
